A study of Mus musculus with 12 samples.

Results

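Carbonic anhydrases were followed across 4 groups of mouse embryonic kidneys: Pkd1null/null mutants at E17.5, wild-type (WT) embryos at E17.5, mutants at E14.5 and WT embryos at E14.5, all of the CD-1 strain. The members were all probes annotated to any of 10 listed genes, Car2, Car3, Car4, Car8, Car9, Car11, Car12, Car13, Car14 and Car15, among 19057 named genes on the array. A gene entered the tests when a probe of it had a detection p under 0.05, that is, a signal above that of the negative control beads, on 3 or more of the 12 arrays. The 10 genes had 16 probes, of which 11 passed, and 9 of the 10 genes had a probe that passed, against 11616 of the 19057 named genes.

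Total RNA was hybridised to Illumina Mouse WG-6 version 2 BeadChips, which read short probes attached to beads, with 3 arrays in each group and the kidney pair of 1 embryo on each array. Mutants were compared with WT littermates, and the null allele, which removes polycystin-1, the large membrane protein mutated in most families with dominant polycystic kidney disease, was carried by the whole embryo and not by the kidney alone. The kidneys were whole, so fewer cells of a type and less RNA per cell cannot be told apart. Levels are log2 intensities after background correction, addition of an offset of 16 and quantile normalisation. The levels of different probes cannot be set against each other, so each gene was compared only with itself.

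Carbonic anhydrases convert carbon dioxide and water to bicarbonate and a proton, and back. In the kidney, cytosolic forms supply protons to the apical pumps and exchangers and bicarbonate to basolateral carriers, while forms held on the outer face of the membrane act on filtered bicarbonate in the lumen and on bicarbonate at the basolateral side. Proximal tubule cells and intercalated cells of the collecting duct are the best known sites of this chemistry. Car2, Car3 and Car13 are cytosolic, Car4 and Car15 are tethered to the membrane by a lipid anchor, and Car9, Car12 and Car14 span it. Car8 and Car11 lack residues that hold the catalytic zinc and have no known enzyme activity.

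Promoter sequence was available for 6 of the 10 members in the RefSeq table on build GRCm38.p6 (Car4, Car9, Car11, Car12, Car14 and Car15). The 250 bases upstream of the listed start are shown for the 3 of these genes that rose with age in both genotypes and for Car9, the member best known as a target of hypoxia. They lay at chr11:84957504-84957753 on the plus strand for Car4, chr16:17838187-17838436 on the minus strand for Car15, chr9:66713436-66713685 on the plus strand for Car12 and chr4:43506776-43507025 on the plus strand for Car9. The Car12 window lay within the annotated gene (chr9:66712296-66766845), upstream of an internal listed start, and the windows of Car11 and Car14 also lay within their genes. Capitals mark the letters of the motifs searched on both strands, and each sequence runs 5′ to 3′ on the strand of the gene.
Car4: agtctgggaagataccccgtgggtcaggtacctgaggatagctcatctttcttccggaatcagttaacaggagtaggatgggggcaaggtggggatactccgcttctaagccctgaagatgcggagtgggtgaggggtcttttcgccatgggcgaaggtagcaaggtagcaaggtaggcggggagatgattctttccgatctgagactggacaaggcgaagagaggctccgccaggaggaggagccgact
Car15: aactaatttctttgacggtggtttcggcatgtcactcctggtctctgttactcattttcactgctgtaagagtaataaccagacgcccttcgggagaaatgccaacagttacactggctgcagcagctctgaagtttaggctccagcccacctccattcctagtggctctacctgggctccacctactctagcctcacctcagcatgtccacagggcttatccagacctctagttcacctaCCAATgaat
Car12: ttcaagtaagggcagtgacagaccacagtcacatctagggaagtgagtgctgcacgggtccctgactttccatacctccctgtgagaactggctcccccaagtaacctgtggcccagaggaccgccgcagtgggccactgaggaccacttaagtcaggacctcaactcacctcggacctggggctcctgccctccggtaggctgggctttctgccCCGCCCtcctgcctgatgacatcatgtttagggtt
Car9: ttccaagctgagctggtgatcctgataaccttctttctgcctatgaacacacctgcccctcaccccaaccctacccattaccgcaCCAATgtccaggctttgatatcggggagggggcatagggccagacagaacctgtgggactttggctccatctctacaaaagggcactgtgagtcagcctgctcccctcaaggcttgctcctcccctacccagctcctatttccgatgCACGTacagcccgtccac

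The 6 motifs searched were those of general promoter elements and of factors with a role in kidney tubules or hypoxia, and each is given with the share of 32841 RefSeq promoters that held it in a window of the same length. The TATA box letters TATAAA were in 12.4% of promoters. The GC box letters GGGCGG were in 32.7% of promoters. The letters CCAAT, bound by nuclear factor Y, were in 33.9% of promoters. The core of the hypoxia response element, ACGTG, was in 16.6% of promoters. A short form of the element of HNF1, a tubule transcription factor, GTTAAT, was in 6.43% of promoters. The GATA factor letters AGATAA were in 9.99% of promoters. The Car9 window held CCAAT at 165 to 161 bases before the start and ACGTG on the opposite strand at 18 to 14 bases before it. The Car12 window held GGGCGG on the opposite strand at 35 to 30 bases before the start, and the Car15 window held CCAAT at 9 to 5 bases before it. Car14, not printed, held ACGTG on the opposite strand at 7 to 3 bases before the start, and no motif of the 6 was found in the windows of Car4 or Car11. The 3 rising genes thus shared none of these motifs in the windows searched. They also differed in CG pairs, with 11 in Car4, 4 in Car15 and 6 in Car12, against a median of 6 over all promoters. In the RefSeq gene order, Car13, Car1, Car3 and Car2 stand next to each other as protein-coding genes on chromosome 3.

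On every array 42.8% to 44.8% of probes were detected, and replicates of a group correlated at r = 0.981 or above over the 21526 probes that passed the filter. The Pkd1 probe was not lower in mutants, with log2 intensities of 7.63 to 7.84 in E17.5 mutants against 6.80 to 7.61 in E17.5 WT, and 7.23 to 7.81 in E14.5 mutants against 6.36 to 6.84 in E14.5 WT, so it did not check the genotype labels, and whether it lies in the deleted part is not given in the sources used here. WT E17.5 replicate 2 stood apart in 8 liver genes, averaging 12.13 on the log2 scale, where the E17.5 mutants had 6.68 to 7.02 and the other E17.5 WT arrays 7.37 and 8.36, although Alb was detected on 0 arrays. WT E14.5 replicate 34 was high for proximal tubule genes, with a mean of 7.69 against 6.12 and 6.78 in the other E14.5 WT arrays. Xist was detected only in mutant E14.5 replicate 35 and WT E14.5 replicate 57, so sex was mixed at E14.5, while no E17.5 array detected it.

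With age, carbonic anhydrases moved in both directions. Of the 9 tested members, 6 were detected on all 12 arrays. In mutants, 5 of these 6 passed an adjusted p of 0.05 at E17.5 against E14.5, 3 higher and 2 lower, where 44.2% of the 12035 features detected on all arrays passed (21.3% higher and 22.9% lower). In WT, 4 of the 6 passed, 3 higher and 1 lower, against 44.7% of these features, with 19.5% higher and 25.2% lower. The other 3 tested members, Car3, Car9 and Car15, met the detection filter mainly through the age at which they were high, which favours an age call. With them 8 of 9 members passed in mutants and 6 of 9 in WT, beside 43.0% and 43.6% of all 14882 features tested, and these counts are given only for completeness. Under cyclic loess normalisation 57.6% of the WT calls over all features were higher, against 46.2% under quantile normalisation. Car2, Car4, Car12 and Car15 rose in both genotypes and Car3 and Car13 fell in both. Car9 and Car14 fell in mutants, while their differences of -0.32 and -0.24 in WT did not pass, and the age difference was not shown to vary with genotype for either (adjusted p = 0.770 for Car9 and 0.382 for Car14 in the test of that difference). All adjusted p-values are from limma's moderated test with Benjamini-Hochberg adjustment over all features.

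**Figure D1:**
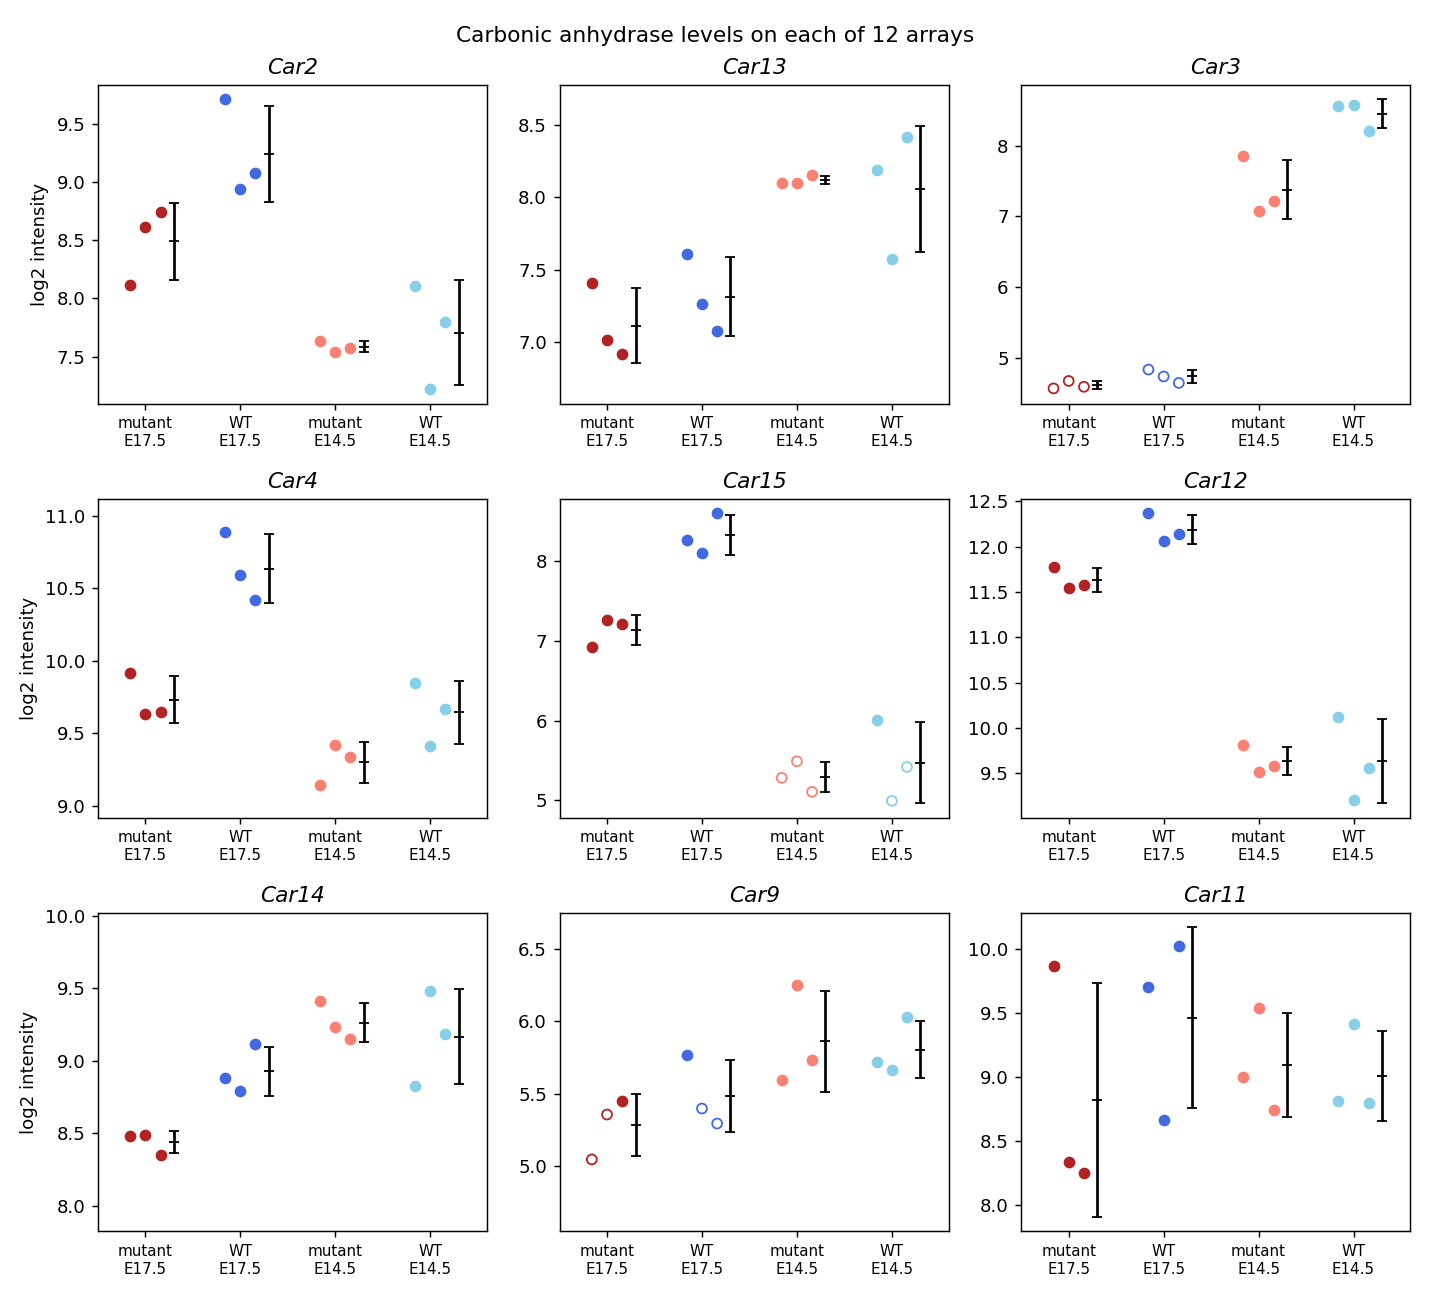
Log2 intensity of the brightest probe of each of the 9 tested carbonic anhydrases on each array, by group; filled points are arrays with a detection p under 0.05, open points are not, bars show the mean and SD of 3 arrays, and the vertical scale differs between panels. Car12 and Car15 are higher on every E17.5 array than on any E14.5 array, Car3 is detected on no E17.5 array, and Car4 and Car15 are lower on each mutant than on each WT array at E17.5.

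Among the cytosolic forms, Car2, the fast enzyme of proximal tubule and intercalated cells and of red cells, had log2 intensities of 8.12, 8.62 and 8.74 in E17.5 mutants, 9.71, 8.94 and 9.08 in E17.5 WT, 7.64, 7.54 and 7.58 in E14.5 mutants and 8.11, 7.22 and 7.79 in E14.5 WT. Every E17.5 array of a genotype was above every E14.5 array of that genotype, and the E17.5 groups did not overlap. Over all features, 56.1% in mutants and 53% in WT did not overlap between ages, and 24.2% did not between genotypes at E17.5. The order of the means was E17.5 WT, E17.5 mutant, E14.5 WT and E14.5 mutant, and the E14.5 groups overlapped. Car2 rose by 0.91 in mutants (SE 0.25, adjusted p = 0.0117) and by 1.54, or 2.90-fold, in WT (SE 0.25, adjusted p = 5.12e-04). The mutant-minus-WT difference at E17.5 was -0.75 and did not pass (SE 0.25, adjusted p = 0.123). WT E17.5 replicate 2, the array with the high liver genes, was also the highest for Car2, and without it the E17.5 genotype difference was -0.52 (adjusted p = 0.311) and the WT age difference 1.30 (adjusted p = 0.00175). The other Car2 probe was detected on 0 of the 12 arrays.

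Car13, a broadly expressed cytosolic form, ran the opposite way from Car2. Its log2 intensities were 7.41, 7.01 and 6.92 in E17.5 mutants, 7.61, 7.26 and 7.08 in E17.5 WT, 8.10, 8.10 and 8.15 in E14.5 mutants and 8.19, 7.57 and 8.42 in E14.5 WT. The mutant ages were well separated, whereas the highest E17.5 WT array stood just above the lowest E14.5 WT array. Car13 fell by 1.00 in mutants (SE 0.21, adjusted p = 0.00249) and by 0.74 in WT (SE 0.21, adjusted p = 0.0132). The WT call was lost without WT E14.5 replicate 58 (adjusted p = 0.0588) or WT E17.5 replicate 41 (adjusted p = 0.0548).

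Car3, a form of low activity that is abundant in skeletal muscle and fat, was measured only at E14.5. It was detected on all 6 E14.5 arrays and on none of the 6 E17.5 arrays, and because it passed the detection filter through its high age, its age difference is described here without reading its calls against the share of all features. Its log2 intensities were 4.57, 4.68 and 4.59 in E17.5 mutants and 4.84, 4.74 and 4.65 in E17.5 WT, all near background, against 7.85, 7.07 and 7.21 in E14.5 mutants and 8.56, 8.57 and 8.21 in E14.5 WT. Levels at E17.5 were at least 3.77-fold lower than at E14.5 in mutants and at least 7.65-fold lower in WT. The bound is set by the dimmest detected probes of the E17.5 arrays. Both folds are given as a description and not as a test.

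Car3 was also the member with the largest genotype difference at E14.5. The 3 E14.5 mutants were all below the 3 E14.5 WT embryos, where 9.12% of all features had genotype groups that did not overlap. Means were 7.38 ± 0.42 in mutants and 8.45 ± 0.21 in WT (SD, n = 3 each). The difference was -1.07 (SE 0.18) and did not pass over all features (limma adjusted p = 0.0873). Without mutant E14.5 replicate 35, the highest of the mutants, it was -1.31 and passed (adjusted p = 0.00591). Without 1 of the other E14.5 arrays at a time it did not pass. Fitted to the 6 E14.5 arrays alone, the difference was -1.08 (limma adjusted p = 0.691). With no moderation of the variance its adjusted p was 0.409. The SE is shared by all 4 groups, and Car3 had SDs of only 0.06 and 0.09 in the E17.5 mutant and WT groups, at background.

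Markers of the tissues that are richest in Car3 are given beside it, and their part in its differences was not tested. The 8 tested skeletal muscle genes had mean log2 intensities of 5.74 to 5.86 in E17.5 mutants, 5.90 to 6.52 in E17.5 WT, 6.40 to 7.23 in E14.5 mutants and 6.22 to 6.89 in E14.5 WT, so at E14.5 the mutant and WT ranges overlapped, and mutant replicate 35, the highest mutant for Car3, was the highest of all arrays for muscle. Of these 8 genes, 4 fell with age in mutants (among them Myl1, a myosin light chain, at least 6.85-fold with 1 of 3 E17.5 mutant arrays detected, Acta1, skeletal actin, at least 2.77-fold with 0 of 3 detected, and Mylpf by 1.02 on the log2 scale) and 1 fell in WT (Myh8, by 0.59), with 0 called between genotypes at either age. The list's median age difference was -0.50 in mutants and 0.00 in WT, against -0.02 and -0.05 for all features. In WT, Acta1, Actn2, Tnni2 and Tnnt3 were higher at E17.5 without passing, and the other genes of the list were lower. The muscle enzyme Ckm and the fat markers Adipoq, Fabp4, Plin1, Cidec and Lep were detected on 0 arrays. Lpl, the only tested gene of the fat list and expressed by other cells too, fell with age in mutants by 0.46 (adjusted p = 0.0296), differed by 0.22 in WT without passing (adjusted p = 0.257), and at E17.5 was lower in mutants, with a difference of -1.10 (adjusted p = 0.0034).

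Of the anchored forms, Car4 sits on the brush border of the proximal tubule and on the thick ascending limb. It had log2 intensities of 9.92, 9.63 and 9.65 in E17.5 mutants, 10.89, 10.59 and 10.42 in E17.5 WT, 9.14, 9.42 and 9.34 in E14.5 mutants and 9.85, 9.41 and 9.67 in E14.5 WT. The E17.5 WT arrays stood above all others, and E17.5 mutants overlapped with E14.5 WT. Car4 rose by 0.99, or 1.99-fold, in WT (SE 0.15, adjusted p = 3.38e-04). In mutants it rose by 0.43 (SE 0.15, adjusted p = 0.0358), a call that was lost without any of mutant E14.5 replicates 35 and 65 and mutant E17.5 replicates 12 and 42 (adjusted p of 0.120, 0.0715, 0.122 and 0.0516).

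Car15, an anchored form that is expressed in mouse kidney and that humans have lost as a working gene, had the second largest range of the members. Its log2 intensities were 6.93, 7.27 and 7.22 in E17.5 mutants and 8.26, 8.11 and 8.60 in E17.5 WT, all detected, against 5.28, 5.49 and 5.11 in E14.5 mutants, none detected, and 6.01, 4.99 and 5.42 in E14.5 WT, of which only replicate 34 was detected. Like Car3, it passed the filter mainly through its high age, with 7 arrays detected. It was at least 3.11-fold higher at E17.5 than at E14.5 in mutants. With the undetected E14.5 arrays set at the same bound, it was at least 6.32-fold higher in WT, where 1 of 3 E14.5 arrays was detected. The fitted differences, which also use signals below detection, were 1.84 in mutants (SE 0.22, limma adjusted p = 8.98e-05) and 2.85 in WT (SE 0.22, adjusted p = 5.40e-06). Replicate 34, the E14.5 WT array with the high proximal tubule genes, was the highest E14.5 WT array for Car2, Car4, Car12 and Car15 alike, and without it the first 3 of these genes rose in WT by 1.73, 1.09 and 2.80 and Car15 was at least 7.11-fold higher against E14.5 WT arrays on which it was not detected (largest adjusted p of the 4 = 3.93e-04).

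Car4 and Car15 were the 2 of 9 members that passed between genotypes at E17.5, both lower in mutants, where 3.17% of all features passed and 1.39% were called lower. Under cyclic loess 45.5% of all calls in this comparison were higher, against 56.1% under quantile normalisation, and both genes kept their direction. Car4 averaged 9.73 ± 0.16 in E17.5 mutants and 10.63 ± 0.24 in E17.5 WT (SD, n = 3 each), a difference of -0.90 (SE 0.15), or 1.87-fold lower (adjusted p = 0.0102). Car15 averaged 7.14 ± 0.18 in E17.5 mutants and 8.33 ± 0.25 in E17.5 WT, a difference of -1.19 (SE 0.22), or 2.28-fold lower (adjusted p = 0.0194). Neither gene had overlapping groups, where 24.2% of all features did not overlap in this comparison. Without WT E17.5 replicate 2, Car4 differed by -0.77 (adjusted p = 0.0363) and Car15 by -1.22 (adjusted p = 0.0541). Without mutant E17.5 replicate 40 neither passed (adjusted p of 0.0549 for Car4 and 0.0573 for Car15), and Car15 was also lost without WT E17.5 replicate 41 (0.0672) or mutant E17.5 replicate 12 (0.0683).

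**Figure D2:**
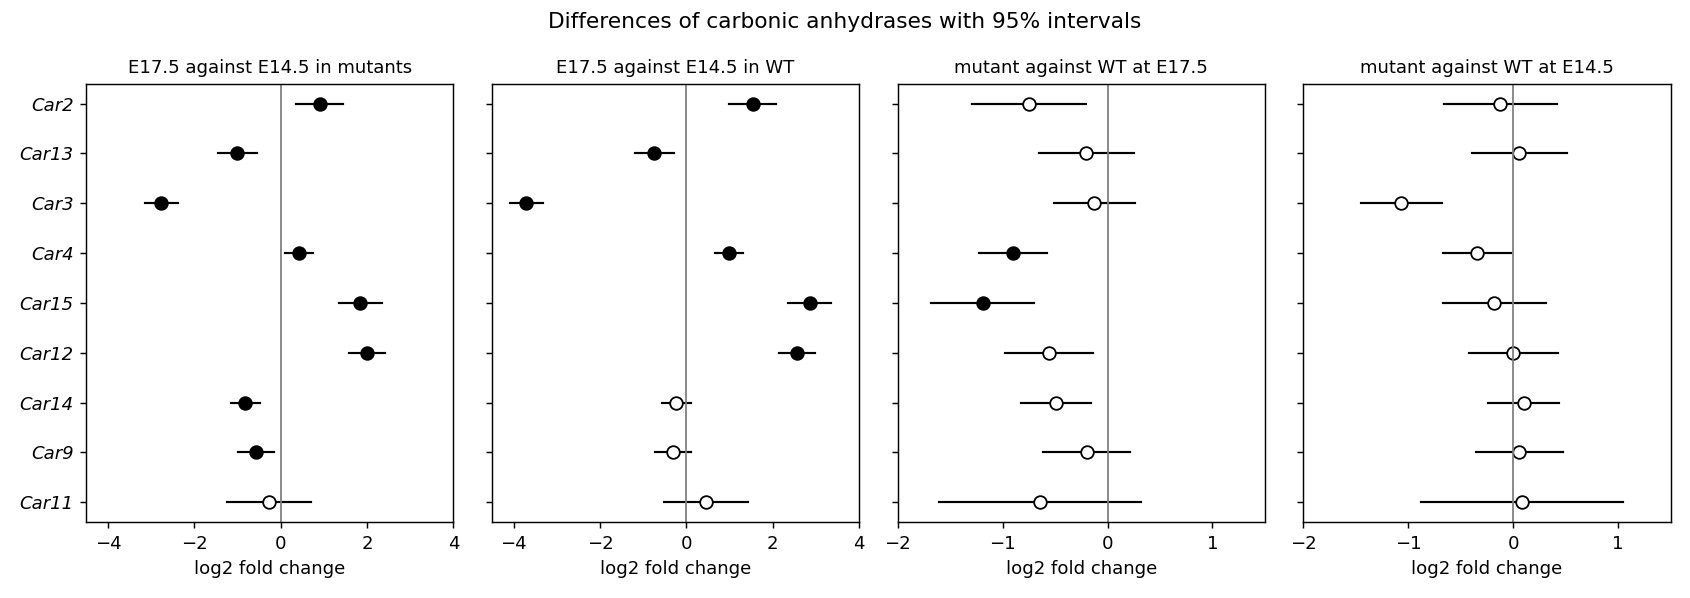
Log2 fold change of the 9 tested carbonic anhydrases in 4 comparisons, with 95% intervals from limma; filled points passed an adjusted p of 0.05 over all features, and the horizontal scale of the 2 age comparisons differs from that of the 2 genotype comparisons. Car12, Car15, Car4 and Car2 lie right of 0 and Car3 and Car13 left of it in both age comparisons, and Car4 and Car15 are the filled points among the genotype comparisons.

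Among the membrane-spanning forms, Car12, found at the basolateral side of distal and collecting duct cells, was higher on every E17.5 array than on any E14.5 array. Its brightest probe had log2 intensities of 11.78, 11.54 and 11.57 in E17.5 mutants, 12.37, 12.06 and 12.14 in E17.5 WT, 9.81, 9.51 and 9.58 in E14.5 mutants and 10.12, 9.21 and 9.56 in E14.5 WT. The E14.5 groups overlapped and had equal means of 9.63, and the E17.5 groups stood apart from each other. Car12 rose by 2.00, or 3.99-fold, in mutants (SE 0.19, adjusted p = 2.17e-05) and by 2.56, or 5.89-fold, in WT (SE 0.19, adjusted p = 4.52e-06). The difference between genotypes at E17.5 was -0.56 and did not pass (SE 0.19, adjusted p = 0.139), except without WT E14.5 replicate 34 (adjusted p = 0.0457) or with array weights (0.0202).

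The other Car12 probe gave the same age pattern on its own scale, with 9.35, 9.18 and 9.13 in E17.5 mutants, 9.98, 9.71 and 10.07 in E17.5 WT, 6.94, 7.09 and 7.01 in E14.5 mutants and 7.36, 6.64 and 7.14 in E14.5 WT. It rose by 2.21 in mutants (adjusted p = 5.24e-06 over the 21526 probes that passed the filter) and by 2.87 in WT (adjusted p = 6.11e-07). At E17.5 it was lower in mutants, with a difference of -0.70 that was just inside the threshold (SE 0.17, adjusted p = 0.0494), so the Car12 probes lay on different sides of it with differences of similar size.

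Car14, which lines proximal tubule and descending limb membranes, had log2 intensities of 8.48, 8.49 and 8.35 in E17.5 mutants, 8.88, 8.79 and 9.12 in E17.5 WT, 9.41, 9.23 and 9.15 in E14.5 mutants and 8.83, 9.48 and 9.18 in E14.5 WT. The E17.5 mutants were below all other arrays, and the remaining 3 groups lay close together. Car14 fell by 0.82 in mutants (SE 0.15, adjusted p = 0.00128), while in WT the difference was -0.24 and did not pass (95% interval -0.57 to 0.10, adjusted p = 0.235). The WT difference passed without WT E14.5 replicate 34 (-0.40, adjusted p = 0.0329). Between genotypes at E17.5 it differed by -0.49 without passing (SE 0.15, adjusted p = 0.110). Its other probe fell by 0.70 in mutants (adjusted p = 0.00425) and differed by -0.12 between genotypes at E17.5 (adjusted p = 0.735). The probes thus matched on age in mutants. At E17.5 the other probe was near the limit of detection, with 2 of 3 arrays detected in each group. The size of the genotype difference could therefore not be compared between the probes.

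Car9, a tumour-associated form that hypoxia induces, stayed near the limit of detection, with 8 arrays detected. Its log2 intensities were 5.05, 5.36 and 5.45 in E17.5 mutants, 5.76, 5.40 and 5.29 in E17.5 WT, 5.60, 6.25 and 5.74 in E14.5 mutants and 5.72, 5.66 and 6.03 in E14.5 WT. Only 1 array of each E17.5 group was detected, against all 6 at E14.5. Car9 fell by 0.58 in mutants (SE 0.19, adjusted p = 0.0281), at least 1.31-fold with the undetected arrays at their bound, a call lost without mutant E14.5 replicate 59 (0.113), mutant E17.5 replicate 12 (0.102) or mutant E17.5 replicate 40 (0.0518), and its WT difference was -0.32 (adjusted p = 0.196). Its 2 other probes were detected on 0 arrays.

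Of 11 tested hypoxia response genes, 3 rose and 0 fell with age in mutants (Ndrg1 by 3.04, Adm by 0.79 and Vegfa by 0.39), and 7 rose and 0 fell in WT, with 0 called between genotypes at either age. Ndrg1 is a stress and differentiation gene, Adm the peptide adrenomedullin and Vegfa an endothelial growth factor. In mutants the list's median age difference was 0.10, with uncalled genes on both sides of 0. The part of hypoxia in the Car9 difference was not tested. At E14.5 the list's mean was 9.82 to 10.22 in mutants and 9.50 to 9.62 in WT, while the Car9 groups overlapped.

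Of the forms with no known activity, Car11 was detected on all arrays and varied more within groups than between them. Its log2 intensities were 9.87, 8.34 and 8.25 in E17.5 mutants, 9.70, 8.67 and 10.02 in E17.5 WT, 9.00, 9.54 and 8.75 in E14.5 mutants and 8.81, 9.42 and 8.80 in E14.5 WT. The groups overlapped in each comparison, with an SE of 0.44, and none of the age or genotype differences passed (smallest adjusted p = 0.428). The E17.5 genotype difference was -0.64 with a 95% interval of -1.61 to 0.32, so changes of that size could not be told from 0 with these arrays. Car8, a brain-enriched member that binds the inositol trisphosphate receptor, lay outside the detection threshold, with its 2 probes detected on 0 arrays, whereas Car3 with 6 arrays, Car15 with 7 and Car9 with 8 were the members nearest to it on the inside.

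At E14.5 no member passed between genotypes, where 0.0538% of all features, 8 of 14882, passed in limma. At an unadjusted p under 0.05, 2 of the 9 members (Car3 and Car4, both lower in mutants) and 476 of all features passed. The Car4 difference was -0.34 (95% interval -0.67 to -0.02), and the other 7 differences lay between -0.18 for Car15, of which 0 of 3 mutant and 1 of 3 WT arrays were detected, and 0.10 for Car14. The members' median difference was 0.00 at E14.5, against a median of 0.00 for all features, and -0.56 at E17.5, against 0.02 for all features.

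From E14.5 to E17.5 the mutant-minus-WT difference changed by a median of -0.56 over the 9 members, against 0.02 for all features. The test of this change between ages, which is also the test of whether the age difference varied with genotype, passed for 0 of the 9 members, where 0.175% of all features passed in limma. At an unadjusted p under 0.05 it held for 4 of the 9 members and 1585 features. It was -1.01 for Car15 (adjusted p = 0.317), -0.59 for Car14 (0.382), -0.56 for Car4 (0.388), -0.56 for Car12 (0.496), -0.63 for Car2 (0.546), -0.73 for Car11 (0.712), -0.26 for Car9 (0.770) and -0.26 for Car13 (0.789). Car3, at background in both E17.5 groups, was the exception in direction, at 0.94 (0.246), and it passed without mutant E14.5 replicate 35 (1.18, adjusted p = 0.0272). Car15 was detected on 0 of 3 mutant and 1 of 3 WT arrays at E14.5, and Car9 on 1 of 3 arrays in each E17.5 group. Signals below detection therefore enter the values of these genes too. The comparisons share groups of arrays, so their directions are not independent of each other.

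The family beyond the listed members was mostly silent. Of 6 other carbonic anhydrase genes, 5 had a probe of that name, and Car1, the red cell form, Car6, the secreted salivary form, and Car10, a form with no known activity, were detected on 0 arrays, and Car7 on 2. Car5b, a mitochondrial form, was tested and rose with age by 1.58 in mutants (adjusted p = 4.80e-05) and by 1.88 in WT (adjusted p = 1.54e-05). Its brightest probe had log2 intensities of 7.87, 7.42 and 7.73 in E17.5 mutants, 8.20, 8.00 and 7.87 in E17.5 WT, 6.22, 6.16 and 5.88 in E14.5 mutants and 6.52, 5.88 and 6.05 in E14.5 WT. At E17.5 this probe differed by -0.35 (adjusted p = 0.287). The dimmer probes detected on all E17.5 arrays differed by -0.60 (adjusted p = 0.0163) and -0.57 (adjusted p = 0.0847). The remaining dimmer probe was detected only on the 3 E17.5 WT arrays, so it passed the filter through that group alone. It was at least 1.40-fold lower in E17.5 mutants, which is given as a description and not as a test.

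Carriers of bicarbonate and protons work with these enzymes. Of 27 listed genes 17 were tested, and with age 11 rose, 0 fell and 6 did not pass in mutants, and likewise 11 rose, 0 fell and 6 did not pass in WT, with medians of 1.23 in mutants and 1.26 in WT against -0.02 and -0.05 for all features. With undetected arrays at their bound the list's medians were 1.21 in mutants and 1.26 in WT. Slc9a3, the sodium/proton exchanger of the brush border, was at least 7.41-fold higher at E17.5 in mutants, with 0 of 3 E14.5 arrays detected, and at least 9.67-fold higher in WT, with 1 of 3 detected. Slc4a4, the sodium bicarbonate carrier of the basolateral membrane, rose by 3.20 on the log2 scale in mutants and 3.71 in WT. At E17.5, 3 of the 17 were lower in mutants and 0 higher. They were Slc4a1, the chloride/bicarbonate exchanger of red cells and intercalated cells (-1.85, adjusted p = 0.0153), Atp6v1c2, a proton pump subunit (-0.90, adjusted p = 0.0443), and Slc26a4, the anion exchanger pendrin (-0.77, adjusted p = 0.0282). At E14.5, 0 of the 17 passed.

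Markers of the segments that hold these enzymes moved beside them, and their part in the members' differences was not tested. The 9 tested proximal tubule genes had mean log2 intensities of 9.33 to 9.44 in E17.5 mutants, 10.65 to 10.79 in E17.5 WT, 6.69 to 6.82 in E14.5 mutants and 6.12 to 7.69 in E14.5 WT. With age 7 of them rose in mutants and 9 in WT, and at E17.5 2 were called lower in mutants. They were Miox, an inositol oxygenase (at least 17.9-fold, with 1 of 3 mutant arrays and 3 of 3 WT arrays detected), and Dpep1, a brush border peptidase (-2.56). Of the genes that did not pass, Lrp2, the endocytic receptor megalin, differed by 0.01 and Cubn, its partner, by -0.07. The rest differed by -0.64 to -1.99, and the list's median difference was -0.81. Slc5a2 was detected on only 2 arrays and was not tested. The 6 tested intercalated cell genes had means of 6.78 to 6.93 in E17.5 mutants and 7.44 to 7.88 in E17.5 WT, with 4 higher with age in each genotype and 3 of 6 lower in E17.5 mutants, Foxi1, their defining transcription factor, among them (-0.62, adjusted p = 0.0394). Slc4a1 and Slc26a4, named above among the transport genes, were the others, so the lists share these calls. Atp6v1b1, a tested pump subunit, differed by -0.01 at E17.5 without passing. The pump subunits Atp6v0a4, Atp6v0d2 and Atp6v1g3 were detected on 0 arrays.

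**Figure D3:**
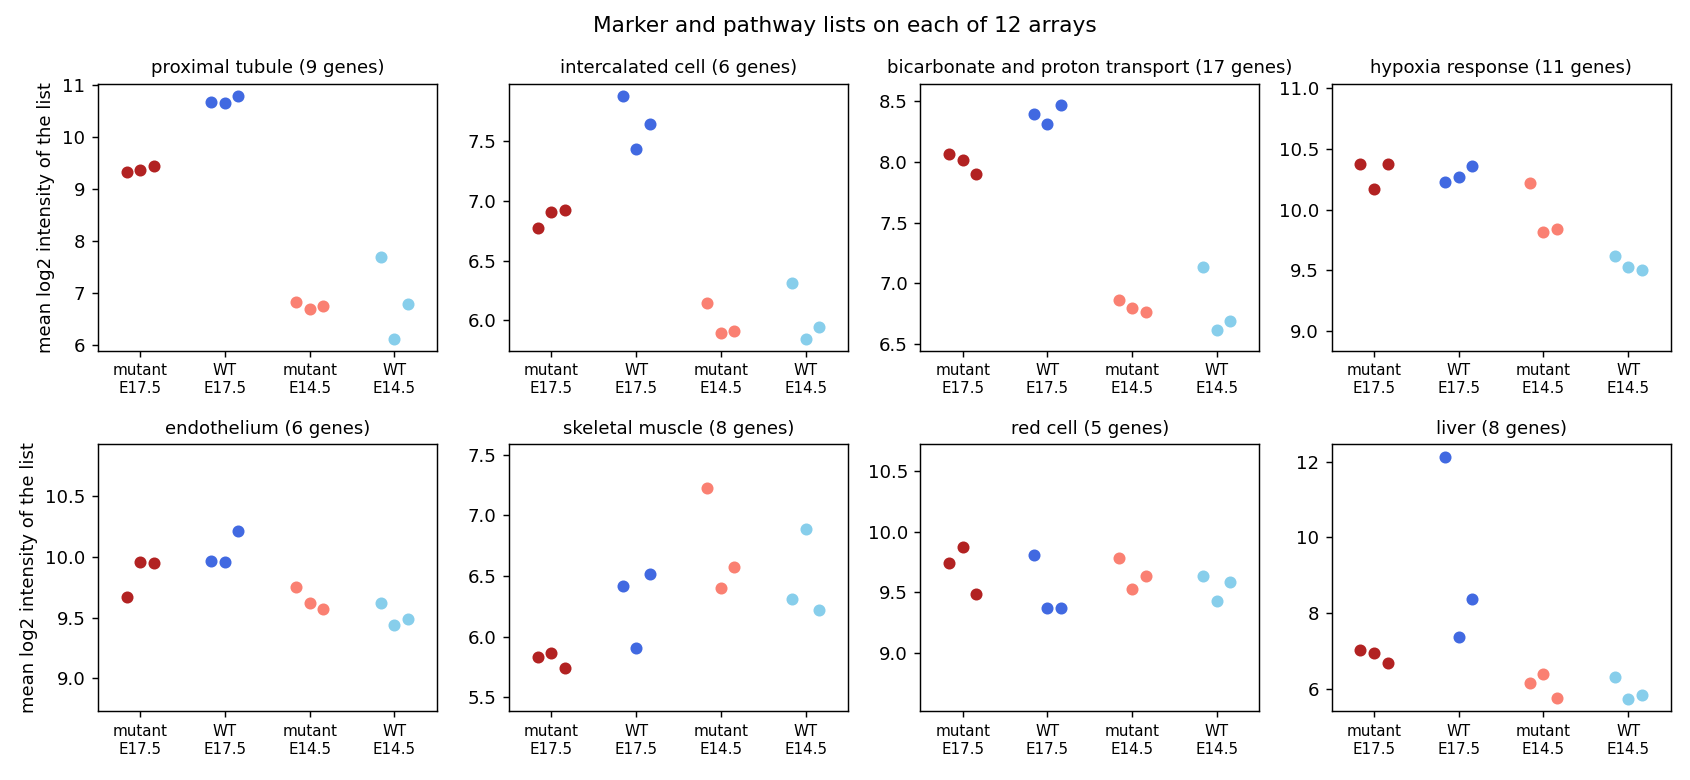
Mean log2 intensity over the tested genes of 8 lists on each of the 12 arrays, by group; each point is 1 array, the number of genes in a list stands in its title, and the vertical scale differs between panels. Proximal tubule, intercalated cell, transport, endothelium, skeletal muscle and liver lists are lower on every mutant than on every WT array at E17.5. The hypoxia response and red cell lists overlap there, and the liver list of WT E17.5 replicate 2 stands at 12.13.

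At E17.5 the separation of mutant and WT arrays was not limited to the segments that are best known for these enzymes, or to tubule genes. Endothelial genes averaged 9.67 to 9.95 in E17.5 mutants and 9.96 to 10.21 in E17.5 WT. Skeletal muscle genes averaged 5.74 to 5.86 against 5.90 to 6.52, and liver genes 6.68 to 7.02 against 7.37 to 12.13. Hypoxia response, red cell and ureteric tip means overlapped between the genotypes. The mean over 7 loop and distal tubule genes was 8.82 to 9.28 in E17.5 mutants and 9.71 to 9.85 in E17.5 WT, that over 8 principal cell genes 9.50 to 9.73 in mutants and 9.85 to 9.88 in WT, and that over the 17 transport genes 7.90 to 8.06 in mutants and 8.31 to 8.47 in WT. Of the remaining tubule lists, 6 of 7 loop and distal tubule genes rose in each genotype and 2 were lower in E17.5 mutants (Umod, uromodulin of the thick ascending limb, at -1.59, and Pvalb, a calcium-binding protein, at -1.48). Of 8 principal cell genes, 7 rose in mutants and 8 in WT, and 0 passed between genotypes at E17.5. Of 6 ureteric tip genes, 1 rose and 2 fell in mutants, 1 rose and 3 fell in WT, and 0 passed between genotypes. The 5 tested red cell genes had means of 9.37 to 9.87 over all 12 arrays, with 0 called with age in mutants and 2 lower in WT. Hbb-b2, a beta globin, was higher in E17.5 mutants by 0.86 (adjusted p = 0.0469). The other 4 did not pass between genotypes at E17.5 and differed by -0.80 to 0.47. The part of red cells, which also hold Car2, in the Car2 difference was not tested. Of 6 endothelial genes, 1 rose in mutants and 6 in WT, with 0 called between genotypes. Of 8 liver genes, 2 rose in mutants and 5 in WT, and 1, the thyroxine carrier Ttr, was lower in E17.5 mutants. No gene of any list passed between genotypes at E14.5.

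Of all named genes tested, those nearest to a member's pattern were found by the root mean square difference of log2 intensity over the 12 arrays after each gene was centred on its own mean. Arrays of a group share age and genotype, and the numbers are descriptions. Nearest to Car15 were Mfsd4b5 (0.21), Aspdh (0.24) and Slc4a9 (0.24), the last a bicarbonate carrier of intercalated cells, and all 3 had their highest mean in E17.5 WT. Nearest to Car12 were Slc1a1, a glutamate transporter (0.14), Macrod2 (0.15) and Cideb (0.16), against a range of 3.16 for Car12 itself. Nearest to Car2 were Hoga1, a mitochondrial enzyme of hydroxyproline breakdown (0.15), Lgmn, the protease legumain (0.19), and Slc22a8, an organic anion transporter of the proximal tubule (0.20). Nearest to Car3, though less close, were the transcription factor Ebf3 (0.54), Slitrk5 (0.55) and the retinoic acid binding protein Crabp1 (0.61), against a Car3 range of 4.00, and all 3 had their highest mean in E14.5 WT.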

How the data were processed

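Data extraction was performed by the authors with BeadStudio, and the authors deposited background-subtracted, non-normalized bead intensity values and a detection p-value for each of 45281 probes on 12 arrays, from labelled cRNA. The authors also deposited quantile-normalized intensity values on a linear scale, empty for probes at or below 0, which were log2 transformed as an alternative. The submitters' processing notes name limma. No genome build was given in the sources used here. Analyses used R 4.3.3 and limma 3.58.1. Intensities were corrected by normexp, with the background inferred from the detection p-value, and an offset of 16 was added before quantile normalization and log2 transformation. Probes detected on 3 or more arrays were kept (21526), and the brightest was used for each gene, giving 11616 named genes and 3266 unnamed probes. Of the probes, 34885 had 1 gene symbol in the platform annotation, 18 several and 10378 none. Other kept probes of members were adjusted over all 21526.

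One limma fit with empirical Bayes moderation over the 4 groups gave 5 comparisons, with Benjamini-Hochberg adjustment over 14882 features. Titles give no shared numbers, so arrays are named by the numbers in their titles. P-values measure the spread among 3 embryos a group, and the number of arrays limits precision. An "at least" fold sets each undetected array of the dim group at the higher of its own signal and the lowest signal of a detected probe on that array, and was also used where only some arrays of that group were detected. All 10 members are named. Pattern likeness was taken for the 4 tested members of largest range, with 3 genes each, and from a marker list at most 3 genes in each direction among those that passed, with markers at background. The members and lists were chosen with earlier results of these data known. Some list genes outside this rule (Lrp2, Cubn) are named with values seen. The fit was tested on simulated data. Alternatives were the background step and its offset, cyclic loess, the value table, detection filters, probe averaging, every kept probe tested, no moderation, array weights, separate fits for 6 arrays, the methods' thresholds (2-fold, with an unadjusted p of 0.05 between genotypes and an adjusted one between ages) and leaving out each array.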

Additional observations from a re-analysis of the deposited data

How the results depend on the processing

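No direction of a called member was turned by any alternative, and of single-member values 1009 stayed on their side of the threshold, 27 fell short of it and 12 newly passed. Members called between genotypes at E17.5 (2 as reported) numbered 1 in the authors' value table (Car15 lost, adjusted p = 0.148), 1 with detection on all arrays (Car15 not tested), 1 with no moderation of the variance (Car15 lost, adjusted p = 0.0600), 1 under the methods' thresholds (Car4 lost) and 4 with array weights, which added Car12 (adjusted p = 0.0202) and Car14 (0.0384). Leaving out 1 array gave 0 to 3. At E14.5 the count (0 as reported) was 1, Car3, with array weights (adjusted p = 0.0237) and under the methods' thresholds, and 0 to 1 leaving out 1 array. With age in mutants (8) it was 5 with detection on all arrays and 4 under the methods' thresholds, and 6 to 8 leaving out 1 array; Car4 and Car9 fell short with no filter (0.0631 and 0.0589) and with no moderation (0.0614 and 0.0598). With age in WT (6) it was 4 to 8 over the other settings and 5 to 7 leaving out 1 array. For the difference of the genotype effect between ages (0) it was 1 with array weights (Car4), 1 under the methods' thresholds (Car15), and 0 to 1 leaving out 1 array. Fewer members are tested under detection on all arrays by construction; other causes were not tested. Over all features, the count between genotypes at E17.5 (472) was 229 in the value table, 297 with no moderation and 2081 with array weights, and at E14.5 (8) it was 5, 5 and 48, and 4 with detection on all arrays. The difference between ages gave 26 features as reported, 5 in the value table, 2 with detection on all arrays, 18 with no normexp step, 44 with offset 50 and 332 with array weights. No scaling moved the median of all features past 0.1. No paired analysis was possible because the titles give no number shared between groups. Signals near background (Car9, and Car3 and Car15 at their low age) limit precision. Slides and scan days are not given in the sources used here.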
